A study of Mus musculus with 8 samples.

Results

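The genes described here encode the nuclear-made subunits of the mitochondrial respiratory chain, complexes I to V. They were chosen by name from the array annotation: symbols starting Nduf followed by a, b, c, s or v and a digit, Sdha to Sdhd, Uqcr genes, Cyc1, Cox4 to Cox8 subunits with a letter a, b or c, and Atp5 genes. The names matched 83 genes. Of these, 80 lay on autosomes, and 75 of those had a probe well above background on at least 6 of the 8 arrays. The 75 genes, out of 18607 tested in all, divide into 34 of complex I, 4 of complex II, 9 of complex III, 11 of complex IV and 17 of complex V. The rule used names and detection and no difference between genotypes. All 75 were well above background on 8 of 8 arrays with the probe that stood for the gene.

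Gene expression was measured in cells of the mouse peritoneum on 8 one-colour Agilent arrays. Of these, 4 carried RNA labelled wild type (wt) and 4 RNA labelled Card9-/-, from mice that lack Card9, the adaptor that carries signals from yeast-sensing receptors such as Dectin-1 to NF-kB. In both groups, per the labels, 1 ml of 3% thioglycolate was injected, the peritoneum was rinsed 4 days later, and cells that stuck to the dish were kept after a wash at 3 h. Zymosan, a preparation of yeast cell wall, was given at 500 mg/kg for 4 h to every sample of both groups, and untreated mice were not analysed here. Cells came from 4 or 5 mice per group. Whether each array held RNA of 1 mouse or of pooled mice is not stated, so p-values measure only the spread between these samples, which may be technical. Strain, age and the deleted part of Card9 are not given in the sources used here. Levels are log2 processed signals minus the array's own 75th percentile, so a level of 0 is that percentile. Differences are Card9-/- minus wt on that log2 scale.

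The respiratory chain passes electrons from NADH (complex I) and succinate (complex II) through complex III to oxygen at complex IV. Complexes I, III and IV pump protons across the inner mitochondrial membrane, and complex V, the ATP synthase, uses the gradient to make ATP. Most subunits are encoded in the nucleus and imported, while a small core set is encoded in mitochondrial DNA. In macrophages the balance between respiration and glycolysis is known to shift with activation, and complex II links the chain to the citric acid cycle.

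Several properties of the libraries touch every result. Card9, the deleted gene, had processed signals of 38.2, 1058 and 561 in wt replicates 2, 3 and 4 at its brighter probe. The signal was 4.75 in the library labelled wt replicate 1, which was not well above background, and 3.60 to 11.9 in Card9-/-. The label of wt replicate 1 is therefore not borne out by that probe, and counts and medians without it are given with the results by array. At the dimmer Card9 probe its signal of 12.7 lay within the 3.70 to 18.5 of Card9-/-. By some other transcripts it stood with the wt arrays. Ucp1, a brown fat gene, was well above background on all 4 wt and 0 Card9-/- arrays. The mean level of natural killer cell markers was -1.32 there, against 0.02 to 2.63 in Card9-/-. Slide 1 held every wt array together with Card9-/- replicate 4, slide 2 held Card9-/- replicates 1 and 3, and slide 3 held Card9-/- replicate 2. Xist was found in the wt libraries and transcripts of the Y chromosome in the Card9-/- libraries, so that sex and genotype cannot be told apart. The libraries labelled wt replicates 1 and 2 were the most alike (r = 0.985 over the genes tested, which share their libraries' scaling). The mean level of 10 measured macrophage markers, of 12 listed, was -0.67, -0.39, 5.47 and 4.06 in the libraries labelled wt replicates 1 to 4 and 1.07 to 1.60 in Card9-/-. These markers thus differed more among the wt libraries than among the Card9-/- libraries. Among wt, the libraries labelled replicates 1 and 2 had the lowest macrophage marker levels and the lowest Card9 signals. A link between these was not tested. In such bulk samples, fewer cells of a type and less RNA per cell cannot be told apart.

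None of the 75 respiratory chain genes differed between genotypes at an adjusted p of 0.05. Their lowest adjusted p was 0.514 (limma, adjusted over all 18607 genes), and among all genes tested 5 passed (0.0269%). At an unadjusted p under 0.05 there was 1 lower gene, Atp5j, where the share over all genes was 4.59%, and 1 higher gene, Cox6a2, where it was 2.64%. The arrays of the genotypes did not overlap for 2 lower genes, Cox6b1 and Uqcrc2, and for 1 higher gene, Cox6a2. Over all genes the corresponding shares were 3.69% and 1.53%. As shares of 75 genes these counts lie below or near those of the whole table. Without the library labelled wt replicate 1, 16 members did not overlap, against 7.69% of all genes. Without wt replicate 4 there were 5 (8.94%), and without Card9-/- replicate 2 there were 9 (8.97%).

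The sign of the smaller differences depended on how the arrays were scaled. With 75th-percentile scaling, 67 of the 75 genes had a lower mean in Card9-/- (89.3%, against 56.3% of all genes tested) and the median difference was -0.32, against -0.09 over all genes. With quantile normalization, 30 of 75 were lower and the median was 0.06, and in the authors' deposited log2 matrix, which holds 67 of the genes, 29 were lower and the median was 0.03. With normexp background correction 70 were lower (median -0.44), and with scaling to the median of bright spots 62 (median -0.24). Among the 67 genes with a value under all 5 scalings, 25 were lower and 5 higher under every scaling, and 37 changed sign. The 8 genes higher under 75th-percentile scaling were Cox6a2 (2.59), Cox6b2 (1.14), Cox7a1 (0.31), Atp5h (0.13), Atp5sl (0.13), Ndufa3 (0.10), Atp5g2 (0.08) and Uqcrh (0.01).

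**Figure D1:**
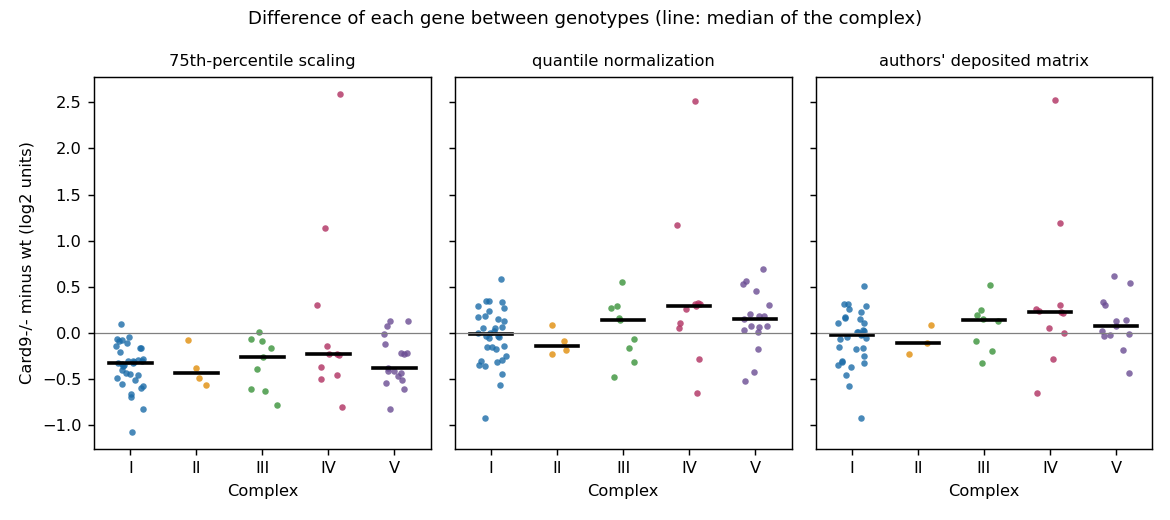
Difference between genotypes (Card9-/- minus wt, log2 units, vertical axis) of each respiratory chain gene by complex, under 75th-percentile scaling, quantile normalization and in the authors' deposited matrix. Points are genes and lines are medians of a complex; most points lie below 0 in the left panel (67 of 75) and not in the other panels (30 of 75 and 29 of 67), while the highest point, Cox6a2, stays near 2.5 in all 3.

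Wt replicate 3 carried most of the shift. It was the highest of the 8 arrays for 67 of the 75 genes (89.3%), where the share over all genes was 27.0%. With quantile normalization it was the highest for 26 genes (34.7%, against 20.6% of all genes) and Card9-/- replicate 1 for 27. With 75th-percentile scaling, as a median over the 75 genes, the level relative to the gene's mean over 8 arrays was -0.34, 0.02, 0.90 and 0.12 in the libraries labelled wt replicates 1 to 4. In Card9-/- replicates 1 to 4 it was 0.05, -0.06, -0.27 and -0.36. The same medians over all genes tested were 0.05, 0.06, 0.20 and 0.02 for wt, and 0.01, 0.01, -0.06 and -0.20 for Card9-/-. Wt replicates 1, 2 and 4 therefore lay within or near the range of the Card9-/- arrays, and the library labelled wt replicate 1 was the lowest array for 23 genes, next to Card9-/- replicate 4 for 28 and Card9-/- replicate 3 for 14. Without wt replicate 3, 49 of 75 genes were lower and the median difference was -0.10, against -0.07 over all genes. Without the library labelled wt replicate 1, 69 were lower and the median was -0.46, and the medians of complexes I to V were -0.54, -0.51, -0.44, -0.42 and -0.46. Without wt replicate 3 the same 5 medians were -0.08, -0.28, -0.10, -0.02 and -0.15. Without Card9-/- replicate 4, 60 were lower with a median of -0.27.

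**Figure D2:**
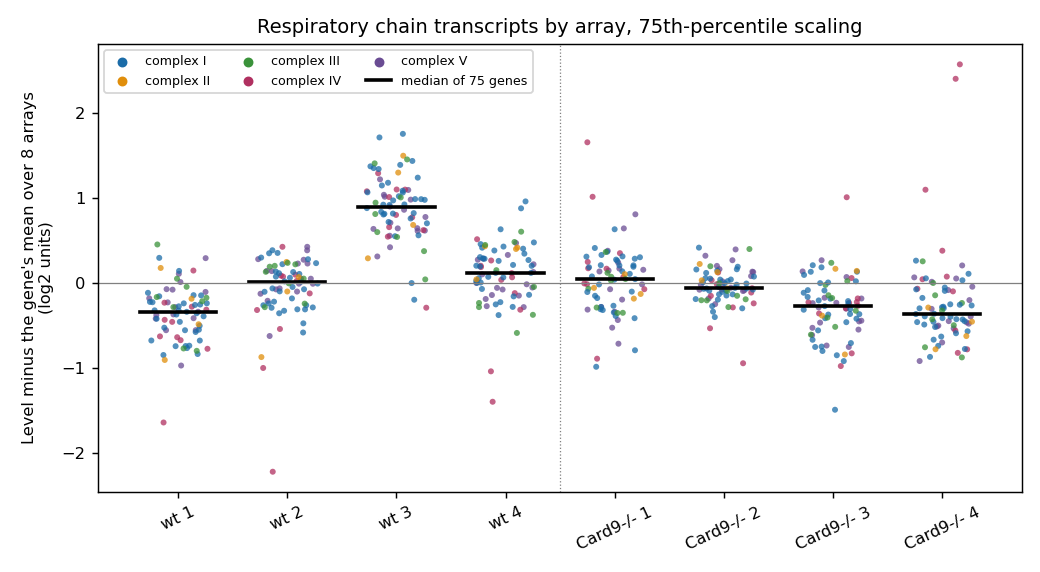
Level of each of the 75 genes minus its own mean over 8 arrays (log2 units, vertical axis) in each array, under 75th-percentile scaling, coloured by complex. Points are genes and black lines are medians; wt replicate 3 has the highest median (0.90), and the other 3 wt arrays lie among or near the Card9-/- arrays.

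Bright transcripts as a whole were high on wt replicate 3. Its 90th percentile of level over all genes tested was 4.84, against 3.98 to 4.57 on the other 7 arrays. Ranks within an array are not affected by scaling. By rank, the median respiratory chain gene stood at percentile 87.6, 89.4, 90.5 and 87.6 of all genes on the libraries labelled wt replicates 1 to 4. On the Card9-/- arrays it stood at 89.9, 89.0, 87.5 and 87.9. These medians averaged 88.7 ± 1.4 for wt and 88.6 ± 1.1 for Card9-/- (SD, n = 4 each). By mean rank, 36 genes were lower and 39 higher in Card9-/-. The groups overlapped for every complex in these median ranks. Wt replicate 3 also had the highest macrophage marker level, as given above, while wt replicate 4, the next highest, had a member median of 0.12; the part of cell composition in the shift was not tested. Ucp1, the uncoupling protein that marks brown fat, was well above background on 4 wt and 0 Card9-/- arrays, with wt levels of -2.06, -1.36, 2.34 and 0.32. It was thus also highest on wt replicate 3, and its part in the result was not tested.

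**Figure D3:**
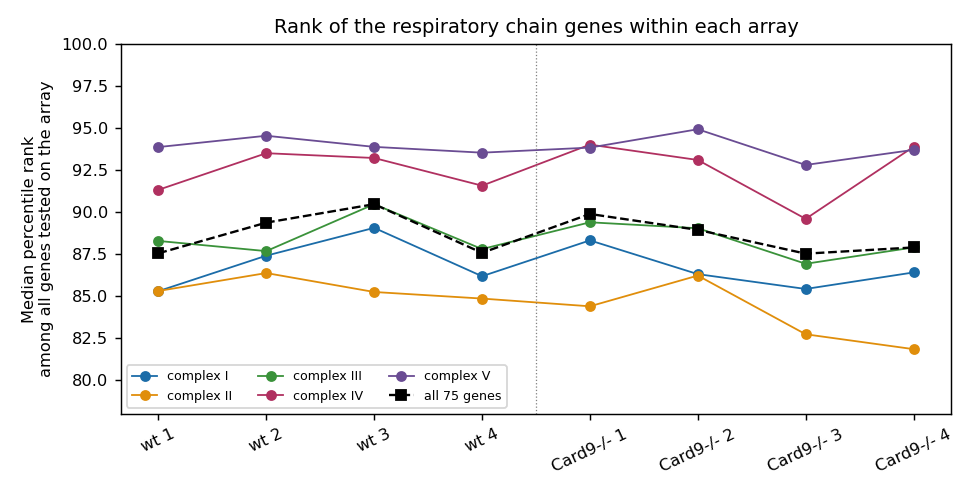
Median percentile rank (vertical axis, which does not start at 0) of the respiratory chain genes among all genes tested on each array, by complex and for all 75 genes. Points are medians per array; for all 75 genes the wt arrays lie between 87.6 and 90.5 and the Card9-/- arrays between 87.5 and 89.9.

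Complex I, the NADH dehydrogenase, was represented by 34 genes, of which 33 had a lower mean in Card9-/- under 75th-percentile scaling, with a median of -0.32 that was -0.01 with quantile normalization. Ndufa8, a subunit of its intermembrane-space face (chromosome 2, 35891871 to 35891930, mm9), had the lowest difference of all members. It stood at 0.40, 1.18, 2.83 and 2.03 in the libraries labelled wt replicates 1 to 4 and at 0.29, 1.49, -0.41 and 0.80 in Card9-/- replicates 1 to 4. The groups overlapped, with wt replicate 3 highest and Card9-/- replicate 3 lowest. Its 1 probe (28.3% G and C) was among those low on slide 2, where Card9-/- replicates 1 and 3 lay 1.21 below replicates 2 and 4 on average. The difference of -1.07 (SE 0.60) gave an exact two-sided permutation p of 0.171 and an adjusted limma p of 0.769. Ndufb2, an accessory subunit of the membrane arm (chromosome 6, 39548336 to 39549425), was at 2.87, 3.33, 4.29 and 3.59 in wt and at 2.13, 3.30, 2.36 and 3.02 in Card9-/-. Low values there lay on Card9-/- replicates 1 and 3, the slide 2 arrays, and the difference was -0.82 (SE 0.43, adjusted p = 0.753, limma). Ndufv2, an iron-sulphur subunit of the NADH-binding module (chromosome 17, 66428794 to 66428853), had means of 3.56 ± 0.47 and 2.86 ± 0.34 (SD, n = 4 each) and a difference of -0.70 (SE 0.37, adjusted p = 0.753). These 3 genes had the smallest p-values of complex I, and all 3 were lower under each of the 5 scalings.

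Further subunits that carry cofactors of complex I were named regardless of their values, and are given beside the median of -0.32 for the complex. Ndufv1, which binds NADH and flavin, differed by -0.30 (SE 0.48), and Ndufs1, the largest iron-sulphur subunit, by -0.33 (SE 0.35). The iron-sulphur core subunits on the way to the quinone site gave -0.16 (SE 0.41) for Ndufs7 and -0.08 (SE 0.38) for Ndufs8. None of these 4 passed the threshold (adjusted p of 0.889 to 0.985, limma). Ndufv1, Ndufs7 and Ndufs8 were above 0 with quantile normalization (0.0013, 0.18 and 0.29) and without wt replicate 3 (0.10, 0.09 and 0.19), whereas Ndufs1 stayed below 0 in both. Ndufs1 was one of the 8 genes not highest in wt replicate 3, where it had its lowest wt value (3.11, 3.16, 2.62 and 3.03 in wt and 2.43, 2.96, 3.02 and 2.18 in Card9-/-). Ndufa3, a small membrane-arm subunit, was the 1 gene of complex I with a higher mean (0.10, SE 0.41), and turned to -0.07 without the library labelled wt replicate 1. Ndufa4, counted here by its name, is now known as a component of complex IV and differed by -0.44.

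Complex II, succinate dehydrogenase, has 4 subunits, all of them nuclear and all measured. Sdha, the flavin-binding catalytic subunit (chromosome 13, 74460310 to 74460369), stood at 3.10, 3.36, 3.97 and 3.69 in wt and at 3.10, 3.51, 2.91 and 2.67 in Card9-/-. Sdhb, the iron-sulphur subunit (chromosome 4, 140535052 to 140535108), was at 3.76, 4.15, 5.54 and 4.66 in wt and at 4.12, 4.37, 3.41 and 3.96 in Card9-/-. For the membrane anchor Sdhd (chromosome 9, 50404630 to 50404689) the values were 3.91, 3.98, 4.03 and 3.78 in wt and 3.68, 3.67, 3.88 and 2.96 in Card9-/-. The genotypes overlapped in all 3, with differences of -0.48 (SE 0.36), -0.56 (SE 0.45) and -0.38 (SE 0.34) and adjusted p of 0.835 to 0.864 (limma). Each of the 3 was also below 0 with quantile normalization (-0.22, -0.18 and -0.09). The other anchor, Sdhc (chromosome 1, 173059539 to 173059598), spread from 0.49 to 2.89 over wt and from 0.94 to 1.56 over Card9-/-, so that its difference of -0.08 (SE 0.56) turned to 0.41 without wt replicate 3.

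Complex III, the cytochrome bc1 complex, had 8 of 9 genes lower and a median of -0.25, which was 0.14 with quantile normalization. Uqcrc2, a core protein of its matrix side (chromosome 7, 127802599 to 127802658), was at 4.07, 4.22, 4.39 and 4.17 in wt and at 4.06, 4.01, 3.69 and 3.52 in Card9-/-. The 2 sets of arrays did not overlap, although the library labelled wt replicate 1 and Card9-/- replicate 1 differed only in the third digit. The difference was -0.39 (SE 0.31), with an exact permutation p of 0.0286, the smallest that 70 assignments can give, and an adjusted limma p of 0.852. With normexp, quantile normalization or the deposited matrix the groups overlapped. Uqcrb (chromosome 13, 67001654 to 67001713), which helps to form the quinone site, differed by -0.77 (SE 0.38, adjusted p = 0.721), and Uqcrfs1, the Rieske iron-sulphur protein, by -0.62 (SE 0.40, adjusted p = 0.805). Uqcrq, a small subunit, differed by -0.61 (SE 0.47). Cyc1, the cytochrome c1 that hands electrons on to cytochrome c, was at 3.70, 3.47, 3.29 and 2.66 in wt and at 3.18, 3.45, 3.23 and 3.02 in Card9-/-, with a difference of -0.06 (SE 0.35). With this probe, Cyc1 was the 1 gene of complex III whose highest array was not wt replicate 3. A brighter Cyc1 probe was not counted because the array annotation gives it no position. That probe was well above background on 8 arrays, differed by -0.66 and was highest on wt replicate 3 (4.95).

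Complex V, the ATP synthase, had 14 of 17 genes lower and a median of -0.38, which was 0.16 with quantile normalization. Atp5j, coupling factor 6 of the stalk (chromosome 16, 84828711 to 84828770), had the smallest p of the complex. Its levels were 3.76, 4.13, 4.53 and 4.22 in wt and 3.04, 3.95, 3.02 and 3.36 in Card9-/-. Card9-/- replicate 2 lay among the wt arrays and the other 3 below them. The difference was -0.82 (SE 0.36), an unadjusted limma p of 0.0485 that became 0.685 after adjustment, with an exact permutation p of 0.0571. It stayed between -1.02 and -0.70 when any array was left out and was -0.52 with quantile normalization. The catalytic head subunits were Atp5b at -0.54 (SE 0.34), Atp5a1 at -0.43 (SE 0.34) and Atp5c1, the rotating gamma subunit, at -0.47 (SE 0.42). With quantile normalization these 3 were at 0.08, 0.21 and 0.03. Of the 3 genes for the membrane ring protein c, Atp5g1 differed by -0.51 (SE 0.36), Atp5g3 by -0.41 (SE 0.35) and Atp5g2 by 0.08 (SE 0.56). The Atp5g2 probe was spotted 10 times on each array, and its spots had an SD of 0.031 to 0.134 log2 units within an array, against an SD of 0.97 between the wt arrays and 0.71 between the Card9-/- arrays. The complex V names include Atp5c1-ps, a gene named as a pseudogene (-0.60, SE 0.37), whose probe may read Atp5c1 as well. They also include Atp5sl (0.13, SE 0.38), now named Dmac2, so that its place in complex V rests on the older name alone.

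Complex IV, cytochrome c oxidase, held the highest difference of all 75 genes and 1 of the 2 lower genes without overlap. Of its 11 genes 8 were lower, with a median of -0.23 that was 0.30 with quantile normalization. Several of its nuclear subunits exist as pairs of isoforms, a ubiquitous form and a form known from heart and skeletal muscle or, for Cox6b2, from testis. Cox6a2 (chromosome 7, 135349160 to 135349219) is the muscle form of subunit 6a, and Cox6a1 (chromosome 5, 115795726 to 115795785) the ubiquitous form. The first 30 bases of each probe are shown because the difference between these isoforms rests on these 2 oligonucleotides; the longest run of letters that the whole probes share is 4 bases.
Cox6a1: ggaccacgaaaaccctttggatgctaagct
Cox6a2: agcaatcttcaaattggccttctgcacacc

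Cox6a2 stood at -3.92, -4.49, -2.57 and -3.32 in the libraries labelled wt replicates 1 to 4, and in Card9-/- at -0.63, -2.16, -1.27 and 0.12. All Card9-/- arrays were above all wt arrays, in each case well above background. The unscaled processed signals were 23.4, 21.4, 64.1 and 89.7 in wt and 142, 119, 100.04 and 211 in Card9-/-. These did not overlap either. The lowest level well above background was -4.50, -4.84, -4.38 and -4.31 on the libraries labelled wt replicates 1 to 4. On Card9-/- replicates 1 to 4 it was -3.64, -4.17, -3.68 and -3.47, higher than on any wt array. Cox6a2 thus lay close to the array's own floor on the libraries labelled wt replicates 1 and 2. Without a filter on dim probes, the median difference over all genes was 0.32, so dim genes tended to be higher in Card9-/- under this scaling. The difference was 2.59 (SE 0.58), or 6.02-fold, with an unadjusted limma p of 0.0015, an adjusted p of 0.514 and an exact permutation p of 0.0286, the smallest possible. Among the alternatives of processing it ranged from 1.62 with normexp to 3.69 with the slide as a block, always higher in Card9-/-. The value of 3.69 rests on slide 1, where Card9-/- replicate 4, the highest array for Cox6a2, is the only array of its genotype. The adjusted limma p of Cox6a2 ranged from 0.134 without a filter on dim probes to 0.836 without Card9-/- replicate 1. Cox6a1 was at 6.59, 6.90, 8.50 and 7.33 in wt and at 7.39, 6.98, 6.92 and 7.12 in Card9-/-, a difference of -0.23 (SE 0.45) that was 0.27 with quantile normalization. Within each array, Cox6a2 minus Cox6a1 was 2.82 higher in Card9-/- (exact permutation p = 0.0286; 0.20 after Benjamini-Hochberg adjustment over 7 isoform pairs).

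Markers of other cell types are given beside Cox6a2. Of the muscle markers 7 were measured, 3 lower and 4 higher in Card9-/- (5 and 2 with quantile normalization), with a mean level of -4.0 to -2.26 in wt and -3.05 to -2.03 in Card9-/-, and the muscle genes Ckm and Myh1 were above background on 0 arrays. The mean level of 9 measured natural killer cell markers, all of them higher in Card9-/-, was -1.32 to -0.43 in wt and 0.02 to 2.63 in Card9-/-. That of 10 T cell markers, all higher (9 with normexp), was 0.81 to 1.21 and 1.87 to 3.22. The 6 red cell markers had means of -0.64 to 3.77 in wt and 2.96 to 7.51 in Card9-/-, highest in Card9-/- replicate 4, which was also the highest array for Cox6a2, Cox6b2 and Cox7a1. Of 7 B cell markers 1 was lower, of 9 neutrophil markers 5 and of 7 mesothelial and fibroblast markers 2. For fat, Adipoq, Cidec and Elovl3 were above background on 0 arrays and 2 of 3 measured markers were lower, among them Ucp1, described above. The part of these cell types in the values of the isoforms was not tested.

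Cox6b1, the ubiquitous form of subunit 6b (chromosome 7, 31409575 to 31411071), was at 2.06, 2.34, 2.69 and 2.18 in wt and at 1.03, 1.95, 1.09 and 1.99 in Card9-/-. The genotypes did not overlap, though they did with median scaling, quantile normalization and the deposited matrix, and Card9-/- replicates 1 and 3, the slide 2 arrays, were lowest. The difference was -0.80 (SE 0.37), with an exact permutation p of 0.0286 and an adjusted limma p of 0.702. Within slide 1, where Card9-/- replicate 4 is the only array of its genotype, it was -0.33. Cox6b2 (chromosome 7, 4703488 to 4703547) was at -1.15, -1.71, -0.17 and -2.11 in wt and at 0.29, -1.66, -1.07 and 1.85 in Card9-/-. Here the genotypes overlapped, the difference being 1.14 (SE 0.77, adjusted p = 0.818) and 0.47 without Card9-/- replicate 4. Cox7a1, the muscle form of subunit 7a, differed by 0.31 (SE 0.51), which was -0.01 without Card9-/- replicate 4. Its ubiquitous partner Cox7a2 gave -0.14 (SE 0.34), and Cox7a2l, which joins complexes III and IV into supercomplexes, -0.46 (SE 0.41). Cox8a, the ubiquitous form of subunit 8, differed by -0.24 (SE 0.35), Cox5a, which lies on the matrix side, by -0.23 (SE 0.37), and Cox6c by -0.37 (SE 0.47). None of the other 6 isoform pairs differed beyond the spread (exact permutation p from 0.0857 to 0.657, adjusted 0.30 to 0.657).

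**Figure D4:**
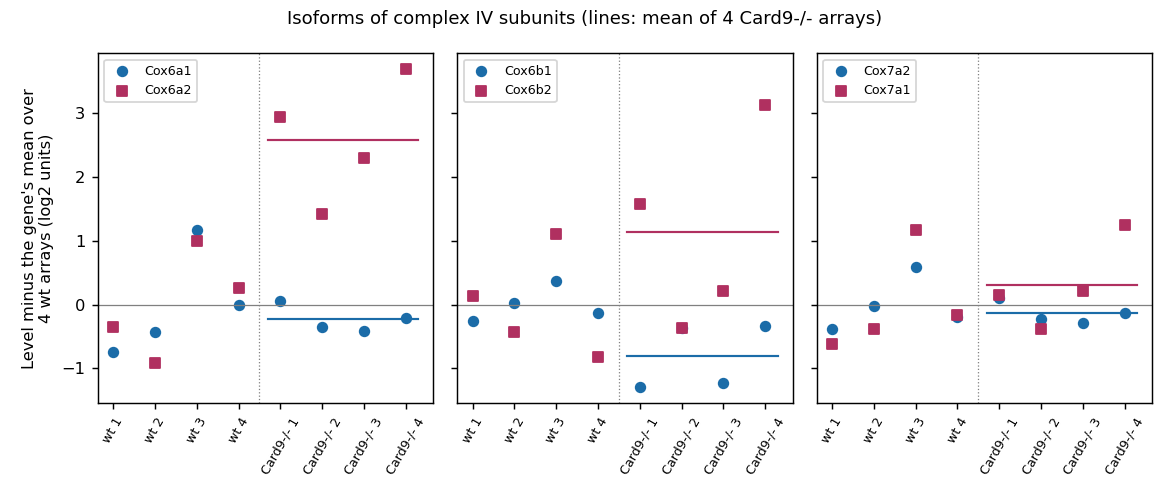
Level of 3 pairs of complex IV isoforms in each array, as the level minus the gene's mean over the 4 wt arrays (log2 units, vertical axis; all panels share it). Points are arrays and lines are the mean of the 4 Card9-/- arrays; all 4 Card9-/- arrays of Cox6a2 lie above its wt arrays, while Cox6b2 and Cox7a1 overlap.

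Probes of the same transcript did not always give the same difference. Of the 75 genes, 28 had over 1 probe counted, and the probes of 15 shared a sign and those of 13 did not (among them Atp5f1, Atp5g3, Atp5h, Atp5j2, Ndufa10, Ndufa3, Ndufs1, Ndufs3, Ndufv1, Ndufv2, Sdhb and Uqcr10). The median span between the probes of a gene was 0.60 log2 units, and the largest was 1.85, for Cox7c. A set of probes gave low values on Card9-/- replicates 1 and 3 alone, the arrays of slide 2. Those 2 arrays averaged over 1 log2 unit below Card9-/- replicates 2 and 4 on 7 of the 111 counted probes. On 0 probes they averaged over 1 unit above. The same count over all probes of the arrays was not made, so whether the drop is particular to these genes is not known. Cox7c and Atp5o show the drop, and the first 30 bases of their probes are printed because each pair reads the same transcript.
Cox7c, probe at base 40: tgtagaaaggagagttaggtggtacggcca
Cox7c, probe at base 306: aaataaggatatttaattcatccctttaac
Atp5o, probe at base 638: aattggggagaagtaccttgttatgtctgc
Atp5o, probe at base 708: atgctctgagagactgtcacctgtgtgagc

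At the Cox7c probe starting at base 40 of the transcript (chromosome 13, 86186301 to 86186360, 55% G and C over its 60 bases), levels were 1.97, 2.71, 3.71 and 3.15 in wt and 2.70, 2.58, 2.46 and 1.82 in Card9-/-. At the probe starting at base 306 (86184486 to 86185363, 28.3% G and C) they were 0.15, 1.38, 1.99 and 2.09 in wt and -2.42, 0.15, -2.62 and 1.08 in Card9-/-. The differences were -0.50 and -2.35, the second resting on the slide 2 arrays. Of Atp5o, a stalk subunit of complex V, the probe at base 708 (chromosome 16, 91925472 to 91925531) gave -0.41, and the probe at base 638 (91925542 to 91925601), with the same 45% of G and C, gave -1.46, with 0.38 and 0.66 on the slide 2 arrays against 2.04 and 1.80 on the other Card9-/- arrays. Atp5h, another stalk subunit, had 3 probes, at bases 391, 437 and 514, with differences of 0.13, -0.34 and -0.97. On these 3 probes slide 2 differed from the other Card9-/- arrays by 0.32, -0.63 and -1.31.

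The counted probes of Uqcrb overlap on the transcript by 23 bases, which are shown with the differing base in capitals. The base at position 11 of the overlap, counted from 1 at its 5′ end, differs as G11A from the probe at base 309 to the probe at base 346.
Uqcrb, probe at base 309: aggagagagaGgagtgggcaaag
Uqcrb, probe at base 346: aggagagagaAgagtgggcaaag

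The probe at base 309 (chromosome 13, 67001691 to 67001750) gave 2.05, 2.19, 3.26 and 2.47 in wt and -1.95, 1.89, -0.04 and 1.47 in Card9-/-, a difference of -2.15. The probe at base 346, which stood for the gene, gave 3.43, 3.84, 4.61 and 4.08 in wt and 3.25, 3.45, 3.43 and 2.73 in Card9-/-, a difference of -0.77. Within wt both probes had the same order of arrays, and they parted on Card9-/- replicates 1 and 3. Of the counted probes, the one with the highest mean stood for each gene. For Cox7c, Atp5o, Uqcrb and Atp5h this was the probe without the drop on slide 2. When the probes of each gene were averaged, 64 of 75 genes were lower with a median of -0.28.

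**Figure D5:**
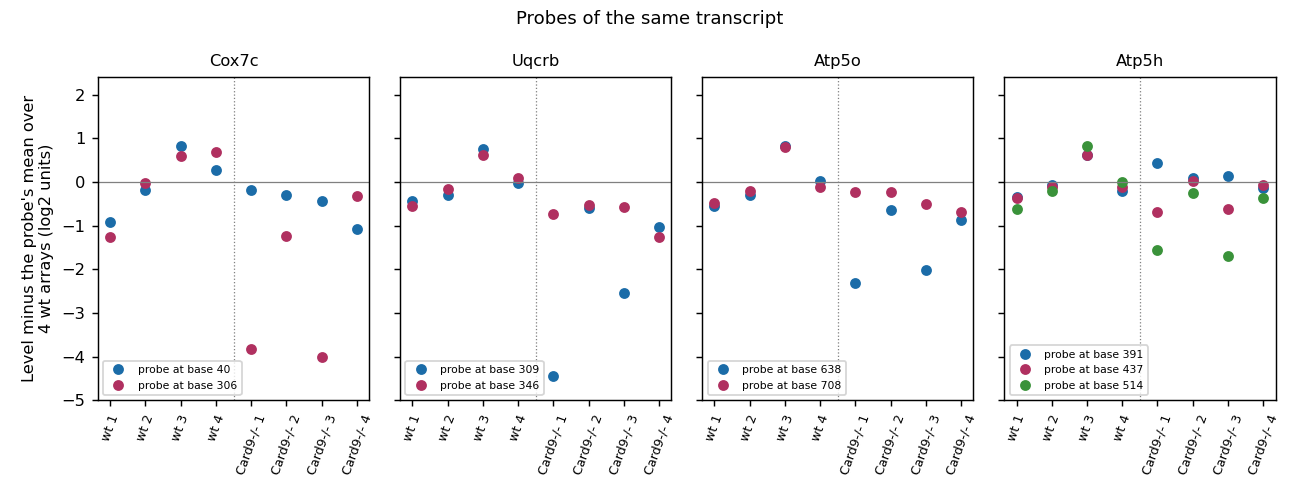
Level of each counted probe of Cox7c, Uqcrb, Atp5o and Atp5h in each array, as the level minus the probe's mean over the 4 wt arrays (log2 units, vertical axis; all panels share it). Points are arrays, coloured by where on the transcript the probe starts; in each gene at least 1 probe drops on Card9-/- replicates 1 and 3 while another probe of the same transcript does not.

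Base composition went with the difference to some degree. Over the 111 counted probes, which share arrays and in part transcripts, the share of G and C correlated with the difference at Pearson's r = 0.39 and Spearman's rho = 0.39, given as a description. The 31 probes with at most 40% G and C had a median difference of -0.45, the 49 with over 40% to 45% had -0.32, and the 31 above 45% had -0.08. Of these 25, 44 and 21 were lower in Card9-/-. The part of base composition in the differences was not tested.

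Promoter sequences were searched because wt replicate 3 was the highest array for 67 of the 75 genes under 75th-percentile scaling. With quantile normalization it was the highest for 26, and shared regulation was not tested. Promoter windows of RefSeq (GRCm38.p6), from 250 bases before to 50 after a transcript's start, were matched by symbol for 62 of the 75 genes. The palindrome CGCATGCG, the core of the site of nuclear respiratory factor 1 (NRF1), a known activator of respiratory chain genes, was in the windows of 9 of the 62 genes (14.5%), against 2.07% of all 27025 genes with a window. For the ETS-type motif CCGGAAGT, searched on both strands, the shares were 5 of 62 (8.06%) and 4.31%, and for the YY1 motif AAGATGGC 11 of 62 (17.7%) and 3.19%. The 9 genes with the NRF1 core had a median difference of -0.16 under 75th-percentile scaling, and the 53 without it -0.31. A match is a description of letters and not of binding. The 27025 genes were not limited to the 18607 tested on the arrays, whereas every member was detected. The shares therefore do not compare genes of like expression. The stretches around the core in 4 of the 9 genes, chosen as those with the core closest before the start, are shown with the core in capitals, each 5′ to 3′ on the gene's strand, minus in all 4.
Uqcr11, chr10:80406803-80406842: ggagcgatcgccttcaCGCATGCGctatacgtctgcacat
Ndufa8, chr2:36049324-36049363: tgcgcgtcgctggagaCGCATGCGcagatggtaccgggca
Atp5g2, chr15:102671065-102671104: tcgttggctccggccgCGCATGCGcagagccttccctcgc
Atp5k, chr5:108434425-108434464: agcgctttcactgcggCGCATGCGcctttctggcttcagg

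In these stretches the core begins 5, 9, 41 and 49 bases before the start site. Uqcr11, a small subunit of complex III, differed by -0.16, and Ndufa8 by -1.07. Atp5g2 differed by 0.08 and Atp5k, a subunit that helps ATP synthase to form dimers, by -0.21. Genes with the same core thus included the lowest member and a member above 0. Nrf1 itself was among 13 measured regulators of mitochondrial genes, of which 8 were lower, with a median of -0.15 and 0 at an unadjusted p under 0.05. Of the lower regulators Yy1 had the smallest p, at -0.58 (SE 0.32, adjusted p = 0.763, limma). Of the higher ones it was Tfam, which packages mitochondrial DNA, at 0.48 (SE 0.46).

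Transcripts of mitochondrial DNA did not follow the nuclear subunits. Of 11 measured, 5 were lower and 6 higher, with a median of 0.08. Their mean level was 5.95, 5.89, 5.13 and 5.13 in the libraries labelled wt replicates 1 to 4. In Card9-/- it was 4.90, 5.59, 5.29 and 6.15. Wt replicate 3, the highest array for nuclear subunits, was thus among the lower arrays here, and Card9-/- replicate 4 was the highest. ND3 differed by -1.13 (SE 0.57, adjusted p = 0.737), with 3.76 and 3.72 on Card9-/- replicates 1 and 3 against 5.35 to 6.16 on the other arrays. ND5 differed by 0.65 (SE 0.51, adjusted p = 0.850). The median was 0.54 with quantile normalization, -0.07 with normexp and -0.02 without wt replicate 3.

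In other lists of nuclear mitochondrial genes most members were lower too, where the share over all genes was 56.3%. Of 28 mitochondrial ribosomal protein genes 24 were lower (median -0.27), of 18 import and carrier genes 17 (-0.32), of 15 citric acid cycle genes 11 (-0.27), of 14 assembly factors of complex I 10 (-0.20) and of 29 assembly factors of complexes II to V 21 (-0.34). Of 9 subunits outside the name rule or on the X chromosome 8 were lower (-0.55). None passed an adjusted p of 0.05. With quantile normalization the citric acid cycle (0.04, 7 of 15 lower) and the import genes (0.00, 9 of 18) lay near 0, while ribosomal proteins (-0.11, 18 of 28) and both assembly lists (-0.19, 11 of 14, and -0.15, 21 of 29) stayed below 0. Without wt replicate 3, where 55.4% of all genes were lower, the complex I assembly factors had 6 of 14 lower and a median of 0.06. The other lists stayed below 0 there. Import genes had 17 of 18 lower (-0.28), ribosomal proteins 21 of 28 (-0.11) and the citric acid cycle 10 of 15 (-0.15). Assembly factors of complexes II to V had 19 of 29 lower (-0.10) and the further subunits 8 of 9 (-0.26). At an unadjusted p under 0.05 there were 2 lower complex I assembly factors, led by Ndufaf8 (-1.39, SE 0.57, adjusted p = 0.637), 1 of the other assembly factors, the copper chaperone Sco1 (-0.84, SE 0.37, adjusted p = 0.689), and 1 citric acid cycle gene, Dlst of the oxoglutarate dehydrogenase complex (-0.97, SE 0.41, adjusted p = 0.670). Over all genes 4.59% were lower at that p and 3.69% were lower without overlap. Dlst stood at 4.09, 3.99, 5.53 and 4.57 in wt and at 3.40 to 3.88 in Card9-/-, without overlap. Sco1 lay between -1.87 and -0.59 in wt and between -2.36 and -2.21 in Card9-/-. The smallest p of the other lists belonged to Mrps18a (-0.67) and, in the higher direction, Mrps34 (0.29) of the mitochondrial ribosome, to Timm17a (-0.68) and Timm9 (0.05) of import, and to Atp5md (-0.80) and the ATP synthase inhibitor Atpif1 (0.23) among further subunits. The leading higher genes were Suclg2 of the citric acid cycle (0.52), Timmdc1 (0.67) and Bcs1l (0.55) of the assembly factors.

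The genes that matched the names and were left out are accounted for as follows. On the X chromosome, Cox7b differed by -0.65, Ndufa1 by -0.60 and Ndufb11 by -0.60. Atp5s lay just outside the detection rule, detected on 4 wt arrays but on only 1 from Card9-/-. Cox8b, the muscle and brown fat partner of Cox8a, was above background on 1 array. Cox7b2, Cox8c and Ndufa4l2 were above background on 0 arrays, so no difference is given for them. Just inside the rule, on 6 of 8 arrays, were further probes of Ndufv2 and Sdha, neither of which stood for its gene.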

How the data were processed

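Expression was measured in 8 samples, 4 wt and 4 Card9-/-, grouped by the sample titles. The deposited scanner output gives background-subtracted intensity from Agilent Feature Extraction 10.7.1.1, per the file headers, not scaled from array to array. In the authors' deposited matrix, values are log2 and how they were made is not stated in the labels or headers. Its rows after row 49670 carried the next probe's values, so that its 49670 aligned rows served only as an alternative, between groups. Direction and log scale matched the scanner files.

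Processed signals of 59305 non-control spots (56605 probes) were taken to log2 and the array's 75th percentile subtracted. Flagged spots (63 to 213 an array) were set to missing and repeated spots averaged. Between 47.8% and 56.5% of spots were well above background and 0 were saturated, and the number of arrays limits the precision. Genes needed a probe well above background on 3 of 4 arrays of either group and 3 usable arrays in each. The probe with the highest mean stood for the gene, for members among the probes that met the member rule. Names came from accessions in the files or a GRCm38.p6 gene table, and coordinates are mm9, from the files; which exon or untranslated region a probe lies in was not analysed here.

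Differences were fitted in R 4.3.3 with limma 3.58.1 (constant prior, two-sided, Benjamini-Hochberg over all genes). Single genes were tested by exact two-sided permutation over 70 assignments. The limma fit was also run on simulated data with less spread than these arrays and no slide effect. That run does not show how the fit behaves on these arrays. The members, lists and rules were chosen with earlier results of these data known. Named genes were the 3 smallest p per complex (all of complex II), isoform sets, cofactor-binding subunits, the extremes, genes whose probes differ in sign, and the smallest p per direction of each list; of lists, 0 passed in any. A gene that this rule names is not reported here. Cox7c, Atp5o, Uqcrb, Uqcrc2, Cox6c, Ndufa4, Uqcr11, Atp5k and the 8 higher genes were named after their values were seen, as was the search by slide and base composition. Alternatives covered background, scaling, filters, probes, slide, replicate block, left-out arrays and the variance prior.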

Additional observations from a re-analysis of the deposited data

Results flagged for a closer look

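The median level of the 11 complex IV genes in Card9-/- replicate 3 was 4.10, apart from the other 3 Card9-/- arrays at 4.87 to 5.00. Its gap to the nearest array was 0.852 of the range of the group, above Dixon's 95% limit for 4 arrays. That median is the level of Cox6c alone, which had the middle rank on the array, and the next gene, Cox7a2, was at 4.80. Relative to each gene's own mean over 8 arrays, the median of complex IV was -0.23 on Card9-/- replicate 3 and -0.11 on replicate 2, so the array did not stand apart on that measure. It was the 1 such case among 92 groups of 4 arrays examined, and chance alone gives about 1 in 20.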

How the results depend on the processing

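Alternatives left the absence of respiratory chain genes past an adjusted p of 0.05 as it was (0 in limma under each, 1 to 6 at an unadjusted p under 0.05), and Cox6a2 was higher in Card9-/- in each. Over all genes, 0 passed with a slide block or within slide 1, and 3 with a replicate block; same-numbered arrays did not deviate together (correlations -0.13, 0.25, -0.12 and -0.28), so the numbers do not pair them. The median over all genes was 0.032 with normexp, 0.32 without a filter on dim probes (where more dim genes are tested) and -0.26 with the slide block and within slide 1.

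At an unadjusted p under 0.05 there were 6 members with normexp (9.21% of all genes), 5 with probes averaged (7.34%), 4 with no filter (26.3%) or an intensity trend (7.75%), and 1 with median scaling, quantile normalization, the series matrix, the replicate block or wt replicates 1 and 2 averaged (5.37% to 7.09%). Leaving out each array gave 1 to 4, the 4 without the library labelled wt replicate 1 (7.40%), with 5.09% to 10.3% of all genes. Genotypes did not overlap for 3 members, 5 with quantile normalization (4.73% of all genes), 7 with wt replicates 1 and 2 averaged (6.79%) and 3 to 16 with an array left out (6.08% to 11.9%).

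Quantile normalization gave 30 members lower and the series matrix 29 of 67. Medians of complexes II, III, IV and V were then -0.14, 0.14, 0.30 and 0.16 with quantile normalization. In the matrix they were -0.10, 0.14 and 0.079 for II, III and V. The turns of sign that follow are listed for the genes named by rule only, and other members turned as well. The sign turned for Atp5a1 (0.21, matrix 0.079), Atp5b (0.079), Atp5c1 (0.032), Atp5f1 (0.18, 0.15), Atp5g3 (0.068, 0.018), Atp5j2 (0.012), Cox5a (0.31, 0.24), Cox6a1 (0.27, 0.21), Cox7a2 (0.31, 0.27), Cox7a2l (0.11, 0.052), Cox8a (0.33, 0.23), Cyc1 (0.16, 0.16), Ndufs3 (0.13, 0.11), Ndufs7 (0.18, 0.16), Ndufs8 (0.29, 0.27), Ndufv1 (0.0013), Sdhc (0.084, 0.083) and Uqcr10 (0.30, 0.19). Of the genes named by rule, median scaling turned Cyc1 (0.013) and Sdhc (0.00042), and normexp Atp5g2 (-0.064) and Atp5h (-0.082). Over all members, 62 were lower with median scaling and 70 with normexp, against 67 with 75th-percentile scaling. With probes averaged the sign turned for Atp5g3 (0.22), Atp5h (-0.39), Atp5j2 (0.039), Ndufs3 (0.15) and Ndufv1 (0.00158), under a slide block or within slide 1 for Atp5g2 (-0.88) and Atp5h (-0.13), and with wt replicates 1 and 2 averaged for Atp5g2 (-0.17), Cyc1 (0.037) and Ndufa3 (-0.030). With 1 array left out, the difference of genes named by rule ranged over 0 for Atp5g2 (-0.23 to 0.50), Cyc1 (-0.27 to 0.0763), Ndufa3 (-0.074 to 0.40), Cox6a1 (-0.48 to 0.16), Cox7a2 (-0.26 to 0.059), Ndufs7 (-0.40 to 0.086), Ndufs8 (-0.22 to 0.19), Ndufv1 (-0.55 to 0.10), Sdhc (-0.39 to 0.41) and Cox7a1 (-0.00527 to 0.70). Other members turned too, and without wt replicate 3 the members lower in Card9-/- numbered 49. The cause of these turns was not tested. Few arrays, slides that hold mostly 1 genotype and unlike macrophage RNA between wt arrays limit what can be resolved.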
